A study of Homo sapiens with 6 samples.

Results

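The methionine cycle and transsulfuration enzymes examined here are 10 genes, MAT1A, MAT2A, MAT2B, AHCY, AHCYL1, GNMT, MTR, BHMT, CBS and CTH, of the 35840 genes in the deposited table. Their Ensembl IDs were matched to symbols in GENCODE 44 and all 10 were found. The set was taken from the pathway, but it was proposed when fold changes of this same comparison were known, so the levels and fold changes of the 10 genes are given as a description without a test. RNA came from Huh-7, a line of human hepatocellular carcinoma, pooled from cells in complete DMEM that received 20 mM metformin for 48 h (3 libraries, metformin replicates 1 to 3) or 0 mM metformin over the same 48 h (3 libraries, control replicates 4 to 6). Both groups were starved before treatment, carry no labelled genetic change, and come from 1 line with no second line for comparison. The drug, a biguanide given to patients with type 2 diabetes, blocks complex I of the respiratory chain.

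The methionine cycle turns methionine into S-adenosylmethionine (SAM), the methyl donor of DNA, RNA, histone and phospholipid methylation. Methyltransferases turn SAM into S-adenosylhomocysteine, which is split into adenosine and homocysteine, and homocysteine is either methylated back to methionine or leaves through transsulfuration to cysteine, the limiting building block of glutathione. The liver is the main site of this pathway, and a lower MAT1A with a higher MAT2A is a known feature of liver cancer cells compared with normal hepatocytes. The study asked which genes and pathways respond to metformin in these cells.

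The deposited values are FPKM, fragments scaled to exon length and to the total of the library, so levels can be compared between genes of different length. The values move in whole steps of 1 fragment, so the depth could be rebuilt, at 17192221 to 17835152 fragments per control library and 17241997 to 18464783 per metformin library. Of the hepatocyte and hepatoma markers, 12 of 12 passed the minimum level, with a summed level of 2830 to 2898 FPKM in the control libraries and 1395 to 1578 FPKM in the metformin libraries. Of 6 fibroblast and stellate cell markers 3 were tested, and the summed level was 106 to 118 FPKM in control and 36.7 to 50.6 in metformin libraries, nearly all of it LUM, while DCN was near 0. Of 6 leukocyte markers 2 were tested (25.3 to 37.9 FPKM summed in control and 6.43 to 11 in metformin, mostly CD14), with CD68 at 0 in every library, and of the 4 endothelial markers in the table none was tested, with TEK at 0 in every library. In bulk RNA, fewer cells with a transcript and less of it per cell cannot be told apart, and the part of these marker differences in the results that follow was not tested. The study calls the 3 libraries of a group replicates and speaks in general of independent trials, but neither the labels nor the sequencing methods say that they were separate cultures, so p-values measure the spread between these libraries.

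MAT2A carries the largest difference of the set, and it holds a known sequence feature that ties its mRNA to SAM. The methyltransferase METTL16 is known to bind hairpins in the 3′ UTR of MAT2A mRNA and, when SAM is low, to favour splicing and stability of that mRNA. The motif of these hairpins, TACAGAGAA or TACAGAAAA in DNA letters, was searched on the transcript strand of the 3′ UTR in the MANE Select transcript of each gene, the 1 transcript chosen by both Ensembl and RefSeq. MAT2A held 6 sites, in a 3′ UTR of 1509 bases on the plus strand of chromosome 2 (GRCh38). The 6 sites are shown because they set MAT2A apart within the pathway, each with 10 bases on either side and with the motif in capitals.
MAT2A site 1, chr2:85543802-85543830: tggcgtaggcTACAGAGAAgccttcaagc
MAT2A site 2, chr2:85544589-85544617: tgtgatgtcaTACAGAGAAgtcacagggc
MAT2A site 3, chr2:85544774-85544802: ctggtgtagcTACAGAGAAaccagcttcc
MAT2A site 4, chr2:85544889-85544917: atggcgtaagTACAGAGAAgccatcacct
MAT2A site 5, chr2:85545004-85545032: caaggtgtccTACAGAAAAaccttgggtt
MAT2A site 6, chr2:85545112-85545140: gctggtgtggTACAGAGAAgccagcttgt

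In each of the 6 windows the bases before the motif hold a run that is the reverse complement of a run after it. The run has 4 bases at site 1, 6 bases at site 5 and 5 bases at the other sites. Such runs could pair as the arms of a hairpin around the motif, but folding was not tested. Sites 1 to 4 and 6 have TACAGAGAA and site 5 has TACAGAAAA. Of 18780 3′ UTRs searched, 846 (4.505%) held at least 1 site, the next highest count after MAT2A was 2, and only MAT2A held 6 or more. None of the other 9 enzymes held a site. A match is a description of the letters and does not show binding in these cells.

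MAT2A, the catalytic subunit of the methionine adenosyltransferase found in most tissues outside the adult liver, lies at chr2:85539168-85545281. It stood at 71.1, 71.0 and 71.1 FPKM in control replicates 4, 5 and 6, and at 6.32, 11.4 and 7.69 FPKM in metformin replicates 1, 2 and 3. All 3 metformin libraries were far below all 3 control libraries, and the metformin libraries differed more among themselves than the controls did. The means were 71.1 ± 0.0715 and 8.46 ± 2.60 FPKM (SD, n = 3 each), an 8.40-fold lower mean, and the log2 fold change on log2(FPKM + 1) was -2.96 (standard error 0.17), the 28th largest in size of the 13094 genes tested. In fragments, the controls held 5560, 5681 and 5487 and the metformin libraries 491, 941 and 595, so counting error is small on both sides. In the control group MAT2A ranked above 96.3% of the genes tested, and in the metformin group above 62%. The last 562 exon bases of MAT2A lie opposite exons of GGCX on the other strand, which was also lower with metformin (10.7 ± 0.684 against 2.73 ± 0.0638 FPKM, n = 3 each). Sites 3 to 6 lie in this stretch. Whether the counting used strand is unknown from the sources, and the fragments shared by MAT2A and GGCX were not measured.

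MAT2B, the regulatory subunit that binds the MAT2A enzyme (chr5:163503114-163519558), was lower by a much smaller amount. It stood at 14.9, 14.8 and 15.9 FPKM in the control libraries and at 11.8, 12 and 11.5 in the metformin libraries, with no overlap. The log2 fold change was -0.34 (standard error 0.053), and -0.18 with TMM factors, which rescale the libraries to each other. MAT1A, the isoenzyme of the adult liver (chr10:80271820-80289658), was the 1 member of this enzyme pair that was higher. Its levels were 0.358, 0.471 and 0.520 FPKM in the control libraries, from 23, 31 and 33 fragments, and 0.908, 1.38 and 1.04 FPKM in the metformin libraries, from 58, 94 and 66 fragments. MAT1A was barely expressed in every library and did not overlap between groups. Its mean was 2.47 times that of the control group, with an interval of 1.93 to 3.22 from its fragments (exact 95% interval, counting error only). The log2 fold change of 0.54 (standard error 0.12) is held down by the pseudocount, and was 1.29 with voom on fragments. MAT1A reached the minimum level only through the metformin group, so a gene like it had to differ to be in the test.

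**Figure D1:**
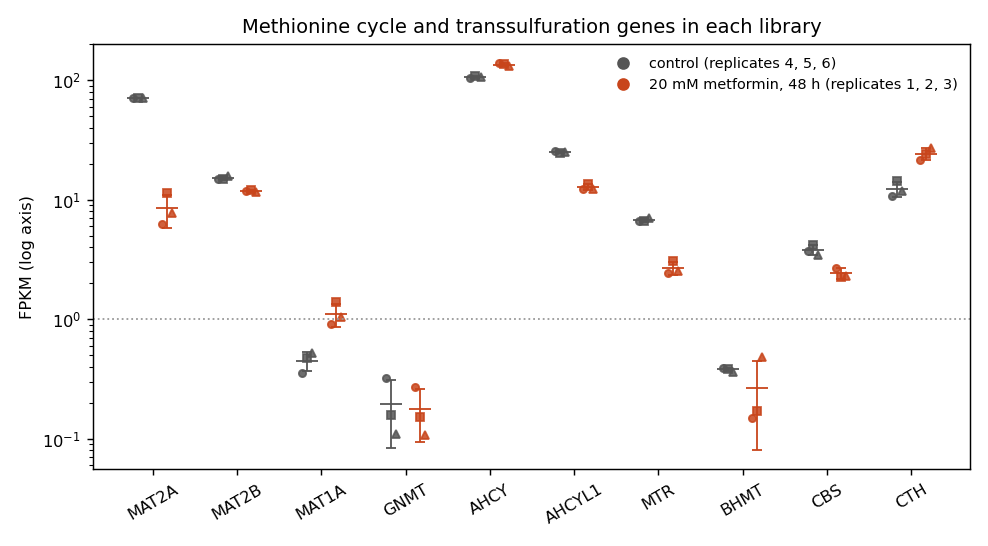
FPKM of the 10 enzymes in each library on a log axis, grey for control and orange for metformin, with the mean and SD of each group (n = 3) and a dotted line at 1 FPKM. MAT2A lies at 71.0 to 71.1 FPKM in the control libraries, near AHCY, and at 6.32 to 11.4 in the metformin libraries, below MAT2B in each, and GNMT and BHMT overlap between the groups at under 1 FPKM.

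The ratio of 2 genes within a library does not depend on how libraries are scaled to each other. MAT2A was 199, 151 and 137 times MAT1A in the control libraries and 6.96, 8.23 and 7.41 times MAT1A in the metformin libraries, so the ratio of the isoenzyme mRNAs was 21.5-fold lower but MAT2A still exceeded MAT1A in every library. MAT2A over its partner MAT2B was 4.77, 4.80 and 4.49 in the control libraries and 0.534, 0.945 and 0.667 in the metformin libraries. The mRNA of the catalytic subunit was thus above that of the regulatory subunit in all 3 control libraries and below it in all 3 metformin libraries.

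GNMT, glycine N-methyltransferase, which disposes of excess SAM in normal liver (chr6:42960754-42963880), was almost silent in this line. It held 6, 3 and 2 fragments in the control libraries and 5, 3 and 2 in the metformin libraries. The metformin level was 0.90 times the control level with an exact 95% interval of 0.343 to 2.33, so a difference was not detectable at this depth. AHCY, the hydrolase that removes S-adenosylhomocysteine (chr20:34280268-34311802), was the most abundant of the 10 enzymes in both groups. It stood at 104, 108 and 106 FPKM in the control libraries and at 138, 136 and 131 in the metformin libraries, all above the controls. The log2 fold change of AHCY was 0.34 (standard error 0.044), and 0.52 with TMM factors. AHCY shares 139 exon bases with a long noncoding RNA on the same strand that stood at 0.480 to 2.78 FPKM.

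AHCYL1, an AHCY-like protein known to regulate the inositol trisphosphate receptor rather than to split S-adenosylhomocysteine (chr1:109984765-110023742), differed from AHCY in direction. Its levels were 25.7, 24.5 and 24.9 FPKM in the control libraries and 12.4, 13.6 and 12.3 in the metformin libraries, without overlap. The log2 fold change was -0.92 (standard error 0.057). AHCY was 4.04, 4.42 and 4.25 times AHCYL1 in the control libraries and 11.2, 9.98 and 10.6 times in the metformin libraries. AHCY over MAT2A went from 1.46, 1.53 and 1.49 to 21.9, 12 and 17, so the hydrolase and the synthetase of the cycle, near each other in the controls, were far apart after metformin.

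**Figure D2:**
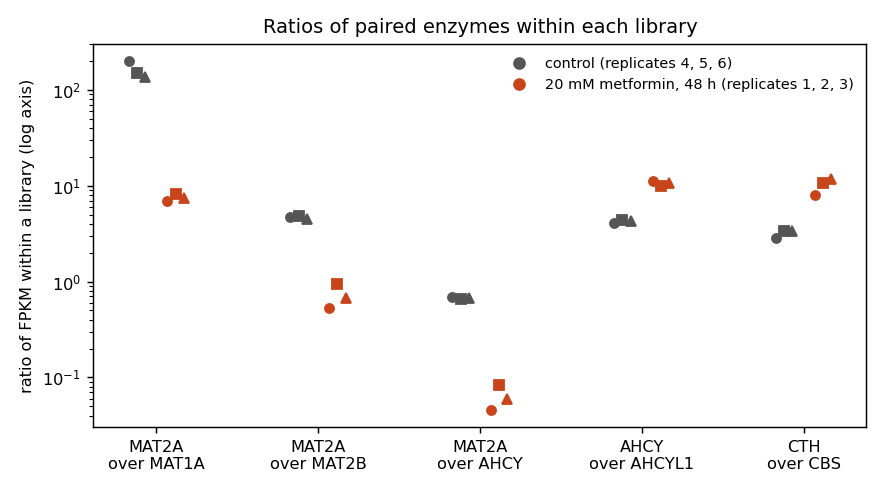
Ratio of FPKM between 2 enzymes within each library on a log axis, grey for control and orange for metformin, 1 point per library. The ratios with MAT2A on top were lower in every metformin library (MAT2A over MAT1A 137 to 199 against 6.96 to 8.23), while AHCY over AHCYL1 and CTH over CBS were higher.

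The remethylation of homocysteine has 2 branches, a folate branch through methionine synthase and a betaine branch. MTR, the cobalamin-dependent methionine synthase (chr1:236795260-236921278), was at 6.61, 6.69 and 7.0 FPKM in the control libraries and at 2.45, 3.05 and 2.54 in the metformin libraries. All metformin libraries were lower, with 483 to 640 fragments against 1311 to 1369. The mean was 2.52-fold lower and the log2 fold change was -1.08 (standard error 0.078), or -0.94 with TMM factors and -1.34 with voom on fragments. BHMT, betaine-homocysteine methyltransferase (chr5:79111809-79132288), is abundant in normal liver but was under 1 FPKM here. It held 24, 24 and 22 fragments in the control libraries and 9, 11 and 29 in the metformin libraries, with metformin replicate 3 above all controls and replicates 1 and 2 below them. The metformin level of BHMT was 0.693 times the control level (exact 95% interval 0.471 to 1.01, counting error only), and 239 of its exon bases lie opposite DMGDH, a gene at 1.66 to 2.24 FPKM. The fragments shared by BHMT and DMGDH were not measured.

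The enzymes of transsulfuration differed in direction. CBS, cystathionine beta-synthase, which joins homocysteine and serine (chr21:43053191-43076943), was at 3.72, 4.19 and 3.48 FPKM in the control libraries and at 2.70, 2.26 and 2.31 in the metformin libraries. CBS was lower in all 3 metformin libraries, with a log2 fold change of -0.49 (standard error 0.086) that ranged from -0.65 to -0.26 over the other scalings and scales. The table also holds ENSG00000274276 at chr21:6444869-6467513, which GENCODE 44 classes as an artifact and which lies within a RefSeq gene that carries CBS and CBSL as synonyms. This entry held 62 fragments over the 6 libraries against 2223 for CBS, and how the counting shared fragments between such copies was not measured. CTH, cystathionine gamma-lyase, which releases cysteine (chr1:70411218-70439851), was higher instead. It stood at 10.7, 14.3 and 11.9 FPKM in the control libraries and at 21.6, 24.0 and 27.3 in the metformin libraries, so the lowest metformin library was above the highest control. The mean of CTH was 1.98 times the control mean, with a log2 fold change of 0.93 (standard error 0.12), the largest positive one of the set on this scale, while by the ratio of means MAT1A exceeded CTH. CTH over CBS was 2.87, 3.40 and 3.41 in the control libraries and 7.99, 10.6 and 11.8 in the metformin libraries.

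Of the 10 enzymes 8 reached the minimum level for the test, a group mean of 1 FPKM in control or metformin, and GNMT and BHMT did not. Of these 8, 5 were lower (MAT2A, MAT2B, AHCYL1, MTR and CBS) and 3 higher (MAT1A, AHCY and CTH) at an adjusted p under 0.05 from limma, where 44.1% of the 13094 genes tested were lower and 28.9% were higher (73% either way). The groups did not overlap in these 8, 5 lower and 3 higher, against 46% lower and 30.7% higher of genes tested (76.7% either way). Since 1 of the 8 entered through its higher group and the set was proposed from this comparison, nothing is read from these counts. The median log2 fold change of the 8 was -0.41 beside -0.14 for all genes tested. MAT2A and MTR were below a log2 fold change of -1, as were 10.7% of genes tested, and none was above 1, as were 4.88%. These sides depend on the setting for 3 enzymes. CTH was above 1 with TMM (1.10) and median-of-ratios scaling (1.08), without control replicate 5 (1.04) and without metformin replicate 1 (1.01), and MAT1A was above 1 with a pseudocount of 0.1 (1.13) and with voom (1.29). MTR lay at -0.92, -0.94 and -0.95 with quantile, TMM and median-of-ratios scaling.

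**Figure D3:**
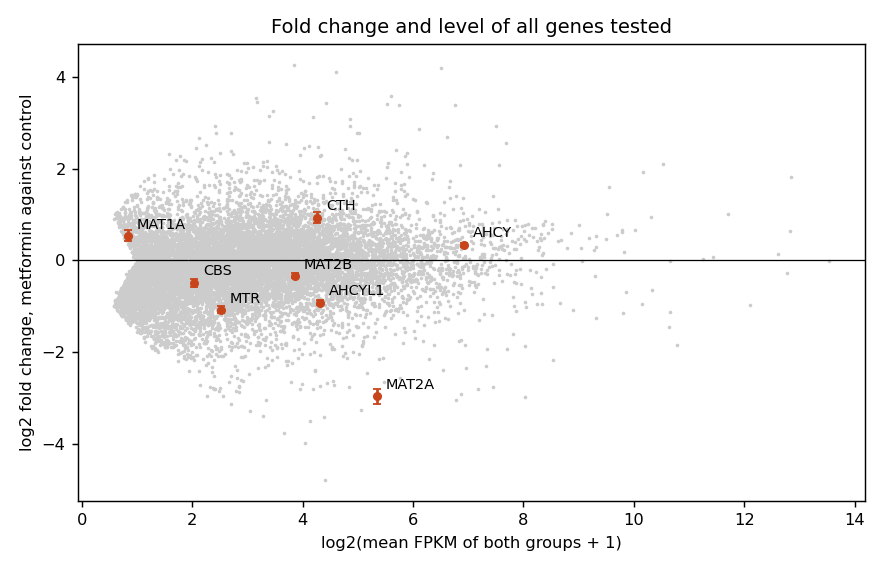
Log2 fold change of metformin against control (y) against log2 of the mean FPKM of both groups plus 1 (x) for the 13094 genes tested in grey, with the 8 tested enzymes in orange and their standard errors. MAT2A lies at -2.96, at the lower edge of genes of its level, and the other 7 lie between -1.08 and 0.93.

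The genes that feed the remethylation step were more often lower than higher. Of 13 genes around methionine synthase, cobalamin handling and betaine, 12 were tested: 1 rose, 6 fell and 5 did not pass, where 28.9% of all genes tested were higher and 44.1% lower. Their median log2 fold change was -0.22 beside -0.14 for all genes. SARDH (2.11 ± 0.514 to 0.607 ± 0.0857 FPKM, log2 fold change -0.94, limma adjusted p = 0.000401) was among the falls. So was MMACHC (2.81 ± 0.181 to 0.992 ± 0.0774 FPKM, -0.93, adjusted p = 3.75e-05). The 1 rise was LMBRD1 (38.4 ± 1.58 to 61.2 ± 1.16 FPKM, 0.66, adjusted p = 2.14e-05). SARDH, MMACHC and LMBRD1 were chosen after their values were seen. MTRR, the reductase that reactivates methionine synthase, fell from 7.28 ± 0.179 to 6.0 ± 0.337 FPKM, with a log2 fold change of -0.24 (adjusted p = 0.00806, limma), and this call was lost with TMM (-0.09, adjusted p = 0.203) and with factors from the median of ratios (-0.11, adjusted p = 0.155). BHMT2, the S-methylmethionine-dependent relative of BHMT, was expressed well above BHMT and did not pass, at 22.6 ± 1.18 FPKM in the control group and 22.3 ± 0.248 in the metformin group (log2 fold change -0.02 ± 0.054 SE, limma adjusted p = 0.771). With TMM factors BHMT2 was higher (log2 fold change 0.15, adjusted p = 0.0372), so its call depends on the scaling.

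Genes that use SAM or set its level moved both ways. Of 17 listed, 15 were tested: 5 rose, 4 fell and 6 did not pass, and the median log2 fold change was -0.05. METTL16, the methyltransferase known to bind hairpins of MAT2A mRNA, rose from 4.76, 4.45 and 4.28 FPKM to 6.62, 6.27 and 5.76 (log2 fold change 0.39 ± 0.070 SE, limma adjusted p = 0.00163). METTL16 was thus higher and MAT2A lower, with no overlap in either gene, as in 76.7% of genes tested. A link between METTL16 and MAT2A in these cells was not tested. AHCYL2, the close relative of AHCYL1, rose from 7.54 ± 0.215 FPKM to 9.02 ± 0.332 (log2 fold change 0.23, adjusted p = 0.00685), opposite to AHCYL1. No gene of this list passed a log2 fold change of 1 in size. The largest falls were HNMT (13.6 ± 0.732 to 6.38 ± 0.156 FPKM, log2 fold change -0.99, limma adjusted p = 8.84e-06), GAMT (49.4 ± 5.02 to 25.6 ± 2.51 FPKM, -0.92, adjusted p = 0.000103) and METTL3 (12.2 ± 0.222 to 6.44 ± 0.460 FPKM, -0.83, adjusted p = 2.42e-05). The largest rise was SLC25A26 (1.43 ± 0.167 to 2.62 ± 0.259 FPKM, 0.58, adjusted p = 0.000833). These genes were chosen after their values were seen.

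In methionine salvage and polyamine metabolism, taken as 1 list, 14 of 14 genes were tested, of which 5 rose, 5 fell and 4 did not pass (median log2 fold change -0.17). The enzymes that take polyamines apart did not move one way. SAT1, the acetyltransferase that starts polyamine breakdown, rose from 78.7, 70.2 and 65.8 FPKM to 166, 150.0 and 161 (log2 fold change 1.14 ± 0.075 SE, limma adjusted p = 1.23e-05), and spermine oxidase SMOX from 25.8 ± 3.35 FPKM to 55.4 ± 5.74 (log2 fold change 1.08, adjusted p = 7.42e-05). The polyamine oxidase PAOX fell from 2.62 ± 0.124 FPKM to 1.58 ± 0.0757 (log2 fold change -0.49, adjusted p = 0.000565), and AMD1, which decarboxylates SAM for polyamine synthesis, fell from 43.1 ± 3.87 FPKM to 26.8 ± 2.66 (log2 fold change -0.67, adjusted p = 0.000381). PAOX and AMD1 were chosen after their values were seen. MTAP, the first enzyme of the salvage, did not pass (2.05 ± 0.130 against 1.74 ± 0.185 FPKM, adjusted p = 0.12).

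Downstream of CTH, 9 of 10 genes of cysteine, sulfide and taurine metabolism were tested, of which 2 rose, 4 fell and 3 did not pass (median log2 fold change -0.20). SUOX, sulfite oxidase, fell from 3.62 ± 0.604 FPKM to 1.03 ± 0.250 (log2 fold change -1.19, limma adjusted p = 0.000123). CDO1, which oxidizes cysteine towards taurine, was below the minimum level, at 0.839, 0.666 and 0.957 FPKM in the control libraries and 0.238, 0.346 and 0.318 in the metformin libraries. Among 7 genes of glutathione synthesis and turnover 1 rose, 3 fell and 3 did not pass (median log2 fold change -0.11). GCLC, the catalytic subunit of the first step of glutathione synthesis, rose from 6.03, 5.82 and 6.03 FPKM to 12.3, 12 and 11.6 (log2 fold change 0.89 ± 0.054 SE, limma adjusted p = 8.9e-06). The other synthesis genes of the list did not rise. GSS fell from 62.4 ± 2.45 FPKM to 47.6 ± 4.22 (log2 fold change -0.39, adjusted p = 0.00177). GCLM did not pass (17.7 ± 1.97 FPKM against 16.3 ± 2.16, adjusted p = 0.372). GSS and GCLM were chosen after their values were seen. Of the enzymes that degrade glutathione, CHAC1 (from 26.5 ± 5.18 FPKM to 3.27 ± 0.888, log2 fold change -2.70, adjusted p = 1.53e-05) and CHAC2 (from 7.96 ± 1.36 FPKM to 3.04 ± 0.453, log2 fold change -1.14, adjusted p = 0.000132) fell, while GGT1, chosen after its values were seen, did not pass (2.53 ± 0.393 FPKM against 2.44 ± 0.279, adjusted p = 0.758).

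The transporters that bring in methionine and cystine were split as well. Of 8 listed, 6 were tested, 2 were higher and 4 were lower, with a median log2 fold change of -0.46. SLC7A11, the cystine carrier, fell from 9.54, 11.9 and 12.1 FPKM to 3.06, 4.86 and 5.36 (log2 fold change -1.19 ± 0.17 SE, limma adjusted p = 0.000561). Its heavy chain SLC3A2, which is shared with other carriers, rose from 54.7 ± 6.70 FPKM to 133 ± 5.01 (log2 fold change 1.27, adjusted p = 1.38e-05). Over the 6 lists, 63 of 69 genes were tested: 16 rose, 26 fell and 21 did not pass, with a median log2 fold change of -0.18. Of all genes tested 28.9% were higher and 44.1% lower, and nothing particular to the pathway is read from them.

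**Figure D4:**
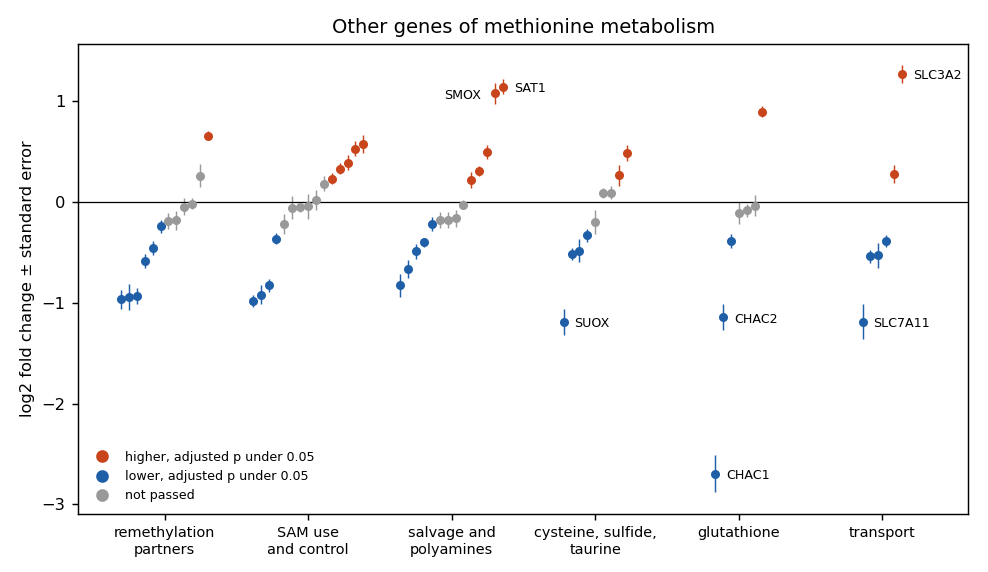
Log2 fold change with its standard error for the 63 tested genes of the 6 other lists, 1 point per gene, sorted within each list and coloured by the test. CHAC1 at -2.70 lies far below the rest, and SLC3A2, SAT1 and SMOX are the 3 genes above 1.

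The genes whose profile over the 6 libraries was nearest to that of MAT2A, by the root mean square difference of centred log2(FPKM + 1) among 6783 protein-coding genes whose mean reached 5 FPKM, were ETAA1 (0.186), OPN1SW (0.187) and ZNF281 (0.213). In ETAA1 the control libraries stood at 11.7, 10.9 and 12.5 FPKM and the metformin libraries at 0.613, 1.69 and 1.05, with replicate 2 the highest of the metformin libraries, as in MAT2A. For CTH the nearest were TBC1D22B (0.0914), CBFA2T2 (0.0915) and HLA-E (0.0940). With 2 groups of 3 libraries such a likeness rests mainly on the difference between the groups.

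The fold changes of the 8 enzymes kept their direction under all alternatives in which each was tested, as the plot by setting shows for the scales and scalings. For genes whose groups do not overlap, leaving out 1 library or changing the filter or pseudocount could not change the direction. MAT2A ranged from -3.11 to -2.80 over the other scales and scalings and from -3.18 to -2.80 when 1 library was left out. The widest range was that of MAT1A, from 0.49 without control replicate 4 to 1.29 with voom, and without metformin replicate 2 MAT1A fell below the minimum level and could not be tested.

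**Figure D5:**
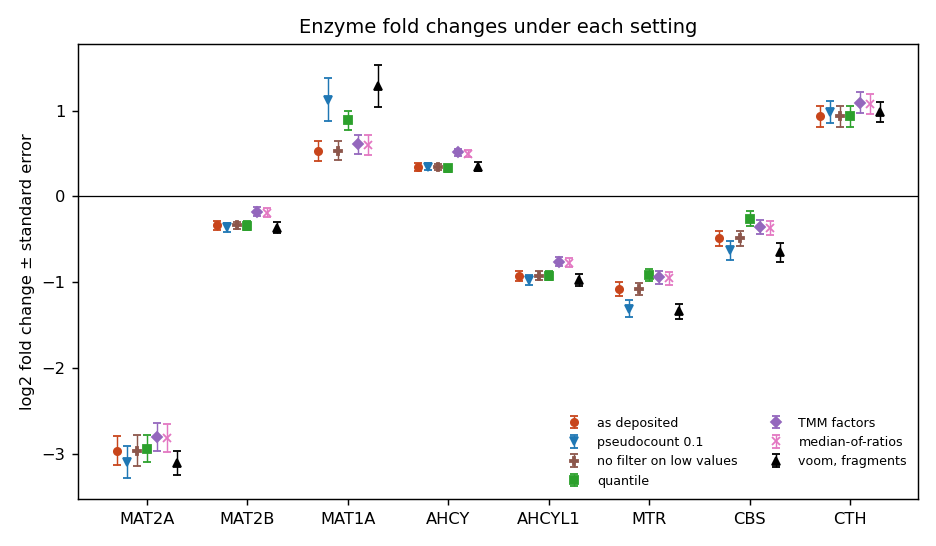
Log2 fold change with its standard error (y) of the 8 tested enzymes (x) as deposited and under 6 other settings, marked by symbol and colour. Every enzyme stays on its side of 0, with MAT2A between -3.11 and -2.80 and CBS between -0.65 and -0.26.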

How the data were processed

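RNA of Huh-7 cells with or without metformin (3 libraries each) was sequenced by the authors. Filtered reads were referred to GRCh38 (aligner: not given in the sources used here), and Cufflinks 2.1.1 is named in the submitters' processing notes. The authors deposited FPKM values per gene and library, from their own filters and counting, for 35840 genes, of which 4063 are at 0 in every library. Of the IDs, 35450 are in GENCODE 44. Whole fragments were rebuilt from the steps of the FPKM values for all 31777 genes above 0 (tolerance 1e-05), and library totals were 17192221 to 18464783.

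Genes whose mean reached 1 FPKM in control or in metformin (13094) were tested two-sided on log2(FPKM + 1) with limma 3.58.1 (R 4.3.3, variance trended on the mean), and p-values were adjusted by Benjamini-Hochberg, with calls at 0.05. Fold changes on this scale understate those of low genes. The procedure was tested on simulated data in which far fewer genes were changed than were called here, and none of low level. That test therefore does not cover low genes or a change of most genes. Tables were prepared with Python 3.11.15 and pandas 2.3.3. Exact intervals are Clopper-Pearson and cover counting error only.

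The members and gene lists were chosen with earlier results of these data known. Named genes are the 10 enzymes, per list up to 4 genes past a log2 fold change of 1 in size, 9 others fixed by name (1 of them is not reported here), and the 3 nearest profiles of 2 enzymes. Alternatives were a pseudocount of 0.1, no filter, quantile normalization, TMM and median-of-ratios factors, voom on fragments (at least 10 in at least 3 libraries), protein-coding genes only, and leaving out each library. Promoters and MANE Select transcripts came from RefSeq (GRCh38.p14) and GENCODE 44. A marker gene, KDR, was not analysed here.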

Additional observations from a re-analysis of the deposited data

How the results depend on the processing

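All 8 tested enzymes kept their direction in each alternative that tested them, 12 for MAT1A and 13 for the others. Most of these alternatives could not change a direction. The groups of these 8 do not overlap, so leaving out 1 library or lowering the pseudocount keeps the sign. Dropping the filter or keeping protein-coding genes only leaves the fold change itself as it was. Quantile, TMM and median-of-ratios scaling could have changed a direction and did not. Leaving out 1 library gave 2 to 3 enzymes higher and 5 lower, the 2 being without metformin replicate 2, where MAT1A was not tested. For the other pathway genes these fits gave 13 to 15 higher and 25 to 28 lower, against 16 and 26, and the other alternatives gave 14 to 22 higher and 24 to 32 lower. Over all genes, leaving out 1 library gave 3451 to 3748 higher and 5324 to 5583 lower, against 3784 and 5781. The balance between directions depends on scaling: 39.6% of called genes were higher as deposited, 50.3% with quantile normalization, 50.6% with TMM factors and 49.5% with factors from the median of ratios, which shifted the all-gene median by 0.13, 0.14 and 0.13 on the log2 scale. Voom on fragments shifted it by -0.10. The differences of MAT2B and AHCY, at -0.34 and 0.34, are of the order of these shifts, while that of MAT2A is not. With TMM factors that of MAT2B became smaller (-0.18) and that of AHCY larger (0.52). The difference of CBS went from -0.49 to -0.26 with quantile normalization. Gene by gene, the alternatives were run only for the named pathway genes, where 2 values lost a call (MTRR) and 2 gained one (BHMT2 with TMM factors and MTAP with voom, adjusted p = 0.0448, against 0.0893 to 0.613 in the others). MTAP, which was not called, was on the other side of 0 with quantile normalization (0.12, adjusted p = 0.21). Depth limits GNMT, MAT1A and BHMT, with 11, 87 and 70 fragments over the control group. No paired analysis was possible because the control replicates (4 to 6) and the metformin replicates (1 to 3) share no number.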

Other observations

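The spread of MAT2A differed between the groups. Among the control libraries its coefficient of variation was 0.101%, below the 1.34% that counting error alone gives at its fragments, and among the metformin libraries it was 30.8%, above the 3.85% from counting. MTR (11.9% beside 4.30%) was also spread beyond counting in the metformin group, and in both genes metformin replicate 2 was the highest of its group. Most of the set was spread beyond counting in the metformin group. Only MAT2B (2.09% beside 3.05%) and GNMT (47.3% beside 54.8%) were not, and the widest spread was that of BHMT (69.7% beside 24.7%). CTH was spread beyond counting in both groups (14.8% and 11.9%, beside 4.39% and 3.11%). So were CBS (9.50% and 9.98%, beside 4.71% and 5.87%) and AHCY (1.99% and 2.90%, beside 1.18% and 1.04%). In the control group AHCYL1 (2.50% beside 2.11%) and MTR (3.04% beside 2.73%) were only slightly above counting. With 3 libraries a group, a spread this small or large in 1 gene was not tested.

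The promoters of the enzymes, the bases around each start as given by RefSeq (GRCh38.p14), were searched on both strands. All 10 genes matched, with 18 promoters. The motif TGATGNAAN, a form of the element that ATF4 binds, was in 0 of the 10 genes and in 3.61% of 35116 promoters. The cAMP response element TGACGTCA was in AHCYL1 alone of the 10, and in 1.85% of all promoters. The element TATAAA was in MAT2A, BHMT and AHCYL1, and in 11.5% of all promoters. The enzymes are counted as genes with a match in any of their promoters, and the background as single promoters. The 2 shares are thus not in the same unit and are not compared. These windows are short, and no match says nothing about the factor.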
